A study of Rattus norvegicus with 40 samples.

Results

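Glul, Axin2, Lgr5, Oat, Rhbg, Tbx3, Lect2, Nkd1, Rnf43 and Znrf3 are targets of Wnt signaling through beta-catenin or genes of pericentral hepatocytes other than cytochromes P450. They were taken by symbol from the gene counts of rat livers treated with diethylnitrosamine (DEN), a carcinogen that hepatocytes activate, and 9 of the 10 symbols had a row among the 17337 genes counted. Znrf3 was not analysed here. The RNA came from 24 male Fischer 344 rats that were 7 weeks old at the start, with 4 rats in each group, and was sequenced as 40 libraries. Treated rats received 50 mg/kg DEN into the peritoneum every week. Their non-tumoral liver (NT) was sampled after 8 injections, after 14 injections, and at week 20, when 14 injections had been followed by 6 weeks without DEN. From each treated rat of weeks 14 and 20, 2 tumor nodules (T) were sequenced as well. Livers of untreated rats of the same age (no DEN) were the controls at each time. All samples were pieces of whole tissue, so that fewer cells of a type and less RNA per cell cannot be told apart.

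In the liver, endothelial cells of the central vein secrete Wnt ligands and R-spondins, and beta-catenin is active in the hepatocytes around that vein. There it maintains glutamine synthetase and the other genes of the pericentral zone, while hepatocytes near the portal vein make urea and glucose. Axin2, Nkd1, Rnf43 and Znrf3 are both targets and brakes of the pathway, and Axin2 is widely used as its reporter. Wnt signaling drives part of human liver cancers, in which Glul, Lgr5 and Tbx3 are common readouts.

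Between 20528515 and 160622633 read pairs were counted per library, and the largest library, NT liver of rat H26 at week 20, stood apart from the next at 39355849. Levels are given as CPM, read pairs scaled to a common library size with trimmed means (TMM), and they are compared only within a gene since CPM does not account for transcript length. The share of pairs not wholly within exons was highest in nodule 1 of rat F06 (34.5%), against at most 28.2% elsewhere. This share moved with DEN at weeks 14 and 20, while the groups overlapped at week 8. It was 21.49% to 23.95% without DEN and 23.02% to 24.92% in NT liver at week 8, 21.96% to 23.86%, 24.42% to 24.90% and 22.95% to 34.48% in untreated liver, NT liver and nodules at week 14, and 22.18% to 22.77%, 21.49% to 24.23% and 22.96% to 26.30% at week 20. All 4 NT livers and 7 of 8 nodules at week 14, and 3 of 4 NT livers and all 8 nodules at week 20, lay above every untreated liver of their week, the exceptions being nodule 2 of rat H23 and the NT liver of rat F03, and its part in the results was not tested. All 6 hepatocyte markers checked (Alb, Apoa1, Ttr, Tat, Serpina1 and Hnf4a) were detected in every library. Treated rats carry a number with F or H and untreated rats only H, so that the letter and DEN cannot be told apart in the 4 rats numbered F.

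The stretches of 250 bases before the RefSeq start sites (build GRCr8, whereas the reads had been aligned to rn6) were searched for the core of the site bound by TCF/LEF factors, the DNA-binding partners of beta-catenin. The core was written as CTTTGA or CTTTGT on either strand and may overlap other motifs. An entry was found for 7 of the 10 genes, with 8 start sites in all, and 4 of the 8 held the core, against 27.5% of 33469 promoters. Axin2, Nkd1 and Lect2 held the longer form CCTTTGA, which 3.78% of all promoters held. A match describes letters and is no evidence of binding. Of the 4 promoters shown, those of Axin2 at chr10:94398535-94398784 (plus strand) and Nkd1 at chr19:34722847-34723096 (minus strand) hold the core, in capitals. Those of Rhbg at chr2:176015150-176015399 (minus strand) and Oat at chr1:196797755-196798004 (minus strand), the genes with the largest rise and one of the largest falls below, hold none in this window.
Axin2: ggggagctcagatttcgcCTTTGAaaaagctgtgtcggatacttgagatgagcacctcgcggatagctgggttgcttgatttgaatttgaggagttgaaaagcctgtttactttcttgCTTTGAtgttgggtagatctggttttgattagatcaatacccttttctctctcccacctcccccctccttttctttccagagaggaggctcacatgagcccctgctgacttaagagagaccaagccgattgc
Nkd1: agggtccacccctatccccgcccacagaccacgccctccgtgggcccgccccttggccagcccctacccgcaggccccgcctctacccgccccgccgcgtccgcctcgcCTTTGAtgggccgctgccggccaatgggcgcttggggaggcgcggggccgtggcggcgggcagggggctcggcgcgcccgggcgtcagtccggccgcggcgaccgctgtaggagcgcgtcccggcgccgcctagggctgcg
Rhbg: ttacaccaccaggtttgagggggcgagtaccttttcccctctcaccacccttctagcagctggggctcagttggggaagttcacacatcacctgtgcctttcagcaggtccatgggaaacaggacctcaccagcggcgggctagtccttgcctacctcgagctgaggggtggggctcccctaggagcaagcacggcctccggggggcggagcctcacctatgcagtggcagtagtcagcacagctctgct
Oat: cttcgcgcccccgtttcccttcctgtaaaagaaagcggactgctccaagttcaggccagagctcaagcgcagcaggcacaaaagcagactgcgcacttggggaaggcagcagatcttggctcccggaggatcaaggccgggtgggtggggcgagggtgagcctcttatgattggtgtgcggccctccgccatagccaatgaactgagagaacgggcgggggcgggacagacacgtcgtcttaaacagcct

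The pericentral transporters and enzymes came first. Rhbg, an ammonium transporter, rose in every comparison with untreated liver, by the largest factor of the 9 genes. At week 8 it stood at 1.81, 4.15, 1.97 and 3.5 CPM in untreated liver and at 31.4, 37.2, 28.6 and 33 CPM in NT liver. At week 14 it was at 2.84, 1.44, 1.71 and 1.82 CPM without DEN and at 30.3, 35, 35.9 and 33.9 CPM in NT liver, and the 8 nodules lay between 34.6 and 46.8 with a median of 38.8. Every treated sample was above every untreated one at both times. At week 20 the untreated values were 3.22, 1.21, 1.21 and 2.66 CPM, the NT values 10.7, 14.4, 15.7 and 17 CPM, and the nodules lay between 15.7 and 32.7 with a median of 23.6, again with no overlap. In NT liver Rhbg was 11.3-fold, 17.3-fold and 6.89-fold higher at weeks 8, 14 and 20 (log2 fold changes 3.5 (SE 0.22), 4.11 (SE 0.16) and 2.79 (SE 0.29), edgeR adjusted p = 8.44e-06, 1.77e-07 and 4.42e-04). In nodules it was 19.5-fold higher at week 14 and 11.1-fold higher at week 20 (adjusted p = 2.93e-06 and 4.10e-05).

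Oat, the mitochondrial ornithine aminotransferase, fell in the same 5 comparisons. Without DEN it stood at 466, 323, 301 and 200.5 CPM at week 8, and with DEN at 92.6, 118, 147 and 123 CPM. At week 14 untreated livers had 289, 362, 224 and 242 CPM and NT livers 100.1, 62.1, 65.4 and 61.1 CPM, the highest NT value being that of rat F06, and the nodules lay between 43 and 66.6 with a median of 58.7. No treated sample reached the lowest untreated one of its week. At week 20 the values were 321, 406, 206 and 315 CPM without DEN and 167, 101, 127 and 191 CPM in NT liver, and nodules lay between 34.7 and 99.9 with a median of 73.8, all of them below all NT livers. NT liver had 2.7-fold, 3.84-fold and 2.13-fold less Oat at weeks 8, 14 and 20 (log2 fold changes -1.43 (SE 0.24), -1.94 (SE 0.21) and -1.09 (SE 0.24), edgeR adjusted p = 0.00179, 8.55e-05 and 0.0121). Nodules had 5.03-fold less at week 14 and 4.26-fold less at week 20 (adjusted p = 2.93e-05 and 1.31e-04).

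Glul, the glutamine synthetase that makes glutamine from ammonia next to the central vein, fell in nodules at both weeks, and in NT liver no change was called. Nodules and NT liver are compared directly further on. At week 8 it stood at 383, 417, 369 and 383 CPM without DEN and at 374, 346, 343 and 349 CPM in NT liver, where 3 of 4 rats were below all untreated ones. It stood at 415, 328, 380.3 and 287 CPM in untreated livers of week 14, at 298, 254, 244 and 285 CPM in NT livers, and in nodules between 162 and 293 with a median of 238. At week 20 untreated livers had 503, 324, 338 and 546 CPM, NT livers 377, 427, 312 and 301 CPM, and the nodules lay between 203 and 419 with a median of 281. The NT values at week 14 overlapped the untreated ones in 1 rat of 4, and at week 20 in 2 rats of 4. In nodules Glul was 1.53-fold lower at week 14 (log2 fold change -0.61 (SE 0.14), edgeR adjusted p = 0.00484) and 1.53-fold lower at week 20 (-0.61 (SE 0.21), adjusted p = 0.0305). The call at week 20 was lost without untreated rat H13 or H16 or without treated rat F03, H26 or H28, with adjusted p between 0.0502 and 0.0933, and with nodule 1 alone (-0.49, adjusted p = 0.101). With nodule 2 alone the week 14 value was -0.43, under the size limit. In NT liver the log2 fold changes were -0.15 at week 8 (adjusted p = 0.125), -0.37 at week 14 (adjusted p = 0.0203, under the size limit) and -0.28 at week 20 (adjusted p = 0.275), and none was called.

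**Figure D1:**
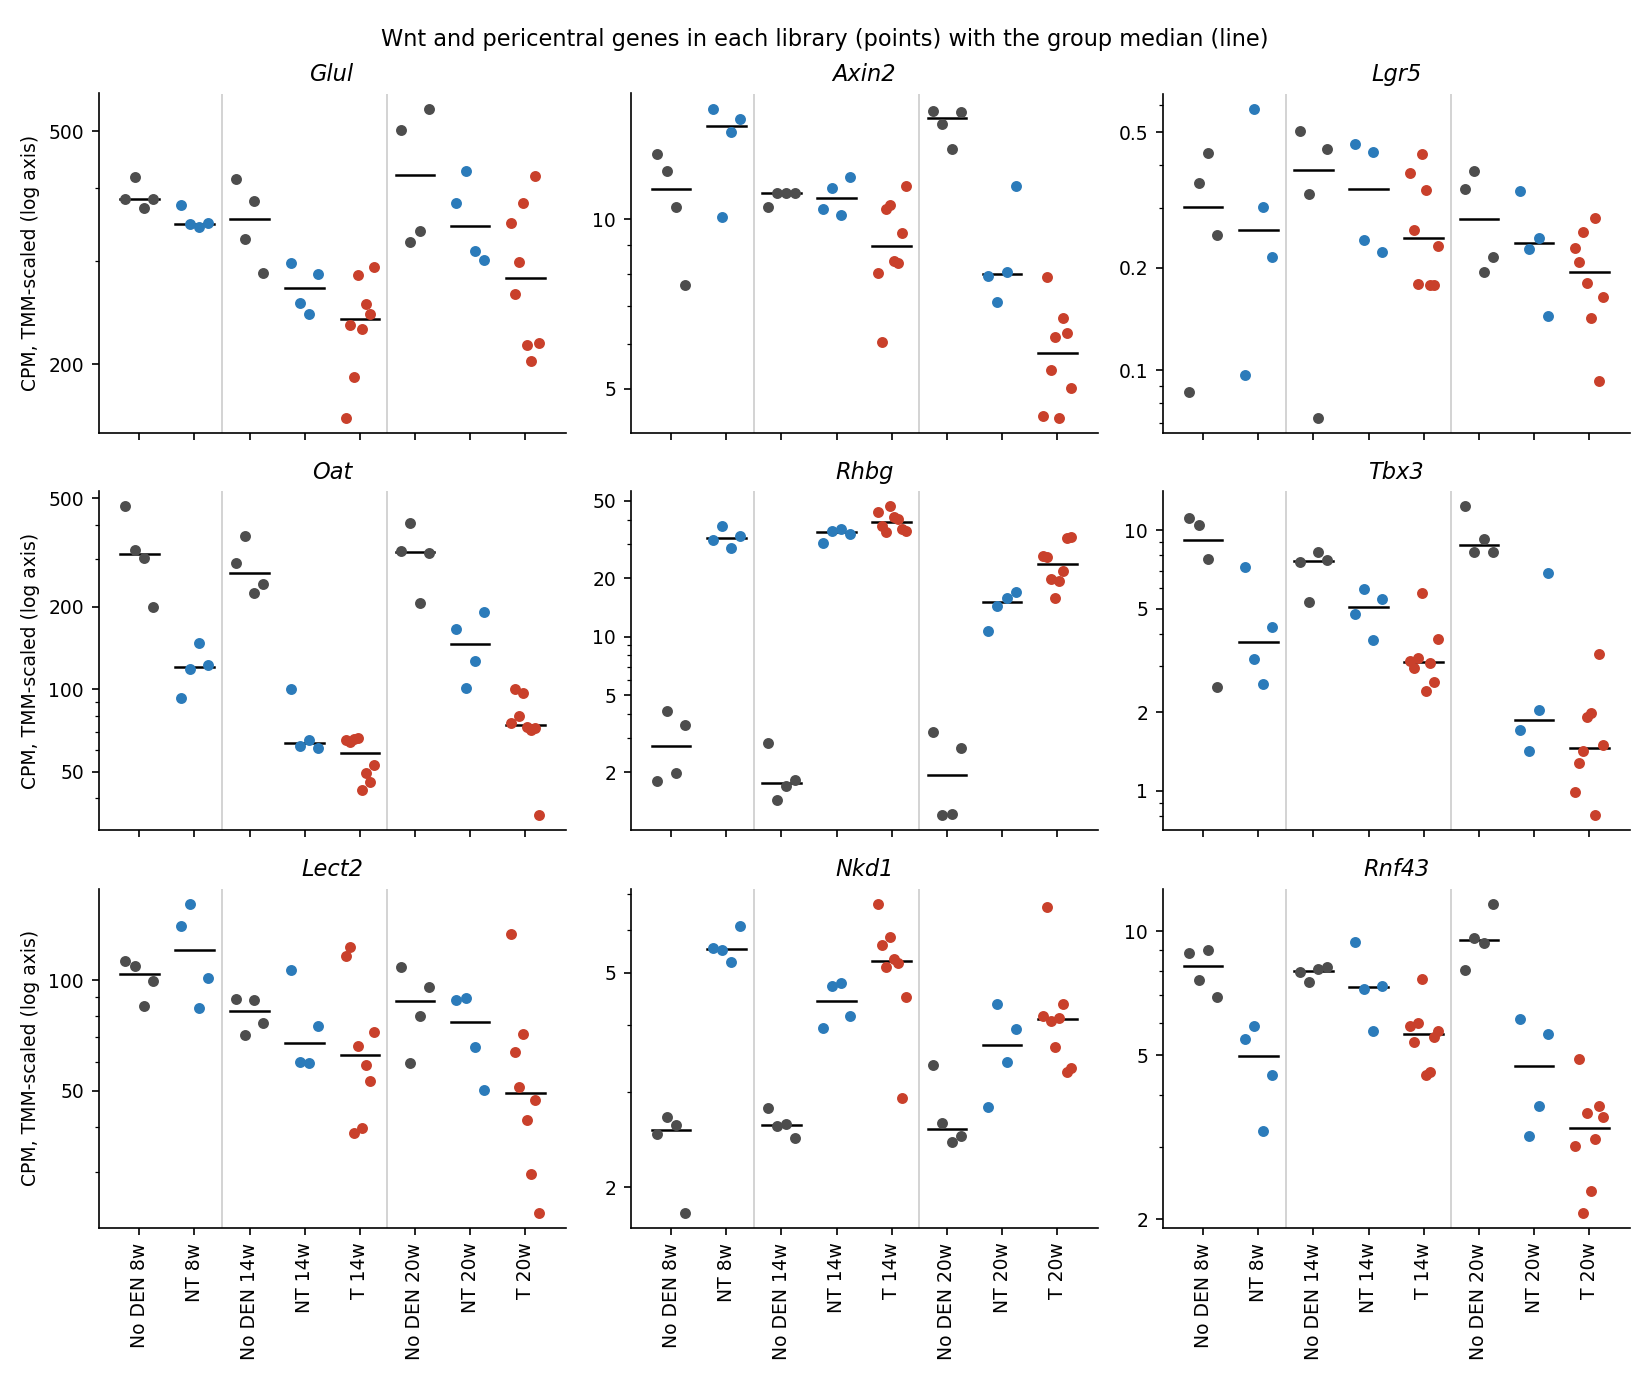
Level of the 9 genes in each of the 40 libraries, in CPM on a log axis that differs between panels, by group (8w, 14w and 20w for weeks 8, 14 and 20), with points for libraries and lines for group medians. Rhbg stands above all untreated livers in every treated sample, Oat below them, and Axin2 lies between 13.4 and 15.6 CPM in untreated liver at week 20 and between 4.44 and 7.89 in the nodules.

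Among the brakes of the pathway, Axin2, a scaffold of the beta-catenin destruction complex, was called at week 20 and not earlier. At week 8 it stood at 13, 12.2, 10.5 and 7.63 CPM without DEN and at 15.7, 10.1, 14.3 and 15.1 CPM in NT liver, and the groups overlapped. At week 14 the untreated livers had 10.5, 11.1, 11.1 and 11.1 CPM, the NT livers 10.4, 11.4, 10.2 and 11.9 CPM and the nodules lay between 6.05 and 11.5 with a median of 8.95. At these times no change was called, with log2 fold changes of 0.34 (SE 0.18) and 0.01 (SE 0.08) in NT liver and -0.31 (SE 0.14) in nodules (edgeR adjusted p = 0.172, 0.924 and 0.084). At week 20 the untreated livers stood at 15.6, 14.7, 13.4 and 15.6 CPM, the NT livers at 7.93, 7.13, 8.07 and 11.4 CPM, and the nodules lay between 4.44 and 7.89 with a median of 5.78. Every treated sample of week 20 was below every untreated one. Axin2 fell 1.72-fold in NT liver (log2 fold change -0.78 (SE 0.15), adjusted p = 0.00393) and 2.6-fold in nodules (-1.38 (SE 0.10), adjusted p = 2.01e-05).

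Nkd1, which binds Dishevelled and dampens the signal, rose in 4 of the 5 comparisons with untreated liver. It had 2.51, 2.69, 2.6 and 1.79 CPM in untreated liver of week 8 and 5.56, 5.5, 5.24 and 6.12 CPM in NT liver, without overlap. At week 14 the values were 2.8, 2.6, 2.62 and 2.47 CPM without DEN and 3.96, 4.73, 4.79 and 4.16 CPM in NT liver, and the nodules lay between 2.93 and 6.71 with a median of 5.26, all above the untreated livers. At week 20 untreated livers had 3.36, 2.63, 2.43 and 2.49 CPM and NT livers 2.82, 4.38, 3.42 and 3.93 CPM, the nodules lay between 3.28 and 6.61 with a median of 4.1, and NT liver of rat F03 and 2 of the 8 nodules overlapped the untreated range. Nkd1 rose in NT liver at week 8 (2.32-fold, log2 1.21 (SE 0.16), edgeR adjusted p = 2.96e-04) and week 14 (1.69-fold, log2 0.76 (SE 0.12), adjusted p = 4.57e-04), and was not called at week 20 (log2 0.41 (SE 0.18), adjusted p = 0.12). In nodules it rose 1.91-fold at week 14 (adjusted p = 0.00254) and 1.51-fold at week 20 (adjusted p = 0.0301). The week 20 call was lost without untreated rat H14, H15 or H16 or treated rat F03 or H26, with adjusted p between 0.0566 and 0.0818, and with nodule 1 alone (0.44, adjusted p = 0.0629).

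Rnf43, a ubiquitin ligase that removes Frizzled receptors from the membrane, fell at weeks 8 and 20 in NT liver. Its week 8 values were 8.86, 7.59, 9.0 and 6.92 CPM without DEN and 5.46, 5.87, 3.27 and 4.48 CPM in NT liver, with no overlap. At week 14 it had 7.94, 7.55, 8.07 and 8.19 CPM without DEN and 9.42, 7.24, 5.73 and 7.37 CPM in NT liver, and nodules lay between 4.48 and 7.66 with a median of 5.64. At week 20 the values were 8.05, 9.65, 9.37 and 11.6 CPM without DEN and 6.12, 3.18, 3.76 and 5.63 CPM in NT liver, and the nodules lay between 2.07 and 4.9 with a median of 3.33, so that all treated samples were below all untreated ones. The log2 fold changes in NT liver were -0.77 (SE 0.18), -0.08 (SE 0.14) and -1.07 (SE 0.21) (edgeR adjusted p = 0.00731, 0.631 and 0.00503), and those in nodules -0.53 (SE 0.14) and -1.57 (SE 0.17) (adjusted p = 0.0123 and 9.76e-05). The nodule call at week 14 was lost, under the size limit, without treated rat H22 (-0.40), with nodule 2 alone (-0.46) and with each nodule as its own value (-0.48).

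Tbx3, a T-box transcription factor, fell furthest in the nodules of week 20. At week 8 it had 11.1, 10.5, 7.78 and 2.5 CPM without DEN and 7.24, 3.2, 2.57 and 4.26 CPM in NT liver, all 4 within the untreated range. Its lower end was rat H08, without which Tbx3 was called lower at week 8 (-1.19, edgeR adjusted p = 0.0190). Untreated livers had 7.58, 5.32, 8.25 and 7.71 CPM at week 14, NT livers 4.75, 5.93, 3.78 and 5.43 CPM, and the nodules lay between 2.42 and 5.74 with a median of 3.13. At week 20 untreated livers stood at 12.3, 8.28, 9.23 and 8.25 CPM and NT livers at 1.71, 1.42, 2.04 and 6.88 CPM, with rat H28 apart from the other NT livers, and the nodules lay between 0.807 and 3.34 with a median of 1.46. All treated samples of week 20 were below all untreated ones. Tbx3 was 2.2-fold lower in nodules at week 14 (log2 fold change -1.14 (SE 0.20), edgeR adjusted p = 0.00131) and 6.01-fold lower at week 20 (-2.59 (SE 0.23), adjusted p = 3.66e-05). In NT liver the log2 fold changes were -0.89 (SE 0.45) at week 8, -0.53 (SE 0.17) at week 14 and -1.68 (SE 0.50) at week 20 (adjusted p = 0.153, 0.0212 and 0.0388). Both NT calls depended on single rats. The week 14 call was lost without untreated rat H11 or H12 or treated rat H22 (adjusted p between 0.0511 and 0.0627), and the week 20 call without any rat of the 8 but H28 (between 0.0669 and 0.0946). Without H28 it was -2.45 (adjusted p = 8.73e-05). With all groups in 1 fit the week 14 value was -0.56 (edgeR adjusted p = 0.249), and with no filter the week 20 value was -1.69 (adjusted p = 0.0616), neither called.

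Lect2 and Lgr5 were not called in any comparison with untreated liver. Lect2, a chemotactic protein that hepatocytes secrete, stood at 113, 109, 84.9 and 99.4 CPM without DEN and 141, 162, 83.9 and 102 CPM in NT liver at week 8. At week 14 it had 89.1, 71, 88.3 and 76.6 CPM without DEN and 107, 60.0, 59.6 and 75 CPM in NT liver, and the nodules lay between 38.4 and 124 with a median of 62.5. The groups overlapped at both weeks. At week 20 it had 86.1 ± 21.4 CPM in untreated livers, 73.6 ± 18.9 in NT livers and 57.7 ± 29.9 in nodules (mean ± SD, n = 4 rats). Its log2 fold changes ran from 0.25 in NT liver at week 8 to -0.66 in nodules at week 20 (edgeR adjusted p = 0.301 and 0.104). In nodules 1 rat decided the Lect2 call at each week, since Lect2 was called lower without rat F06 at week 14 (-0.59, adjusted p = 4.07e-04) and without rat F03 at week 20 (-0.99, adjusted p = 0.0154). F06 and F03 were the only rats numbered F in the nodule groups of their weeks. In NT liver Lect2 was highest in rats numbered F at week 8 (F09 and F10) and week 14 (F06). At week 20 it was not (88.2 CPM in F03, 89.8 in H25). Nodule 1 of F06 also had the highest share of pairs not wholly within exons. The part of the letter was not tested. Lgr5, an R-spondin receptor, had 2 to 40 counts per library (0.0727 to 0.584 CPM) and passed the filter on low counts, among comparisons with untreated liver, at week 14, where the log2 fold changes were -0.01 (SE 0.47) in NT liver and -0.38 (SE 0.45) in nodules (adjusted p = 0.987 and 0.503).

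**Figure D2:**
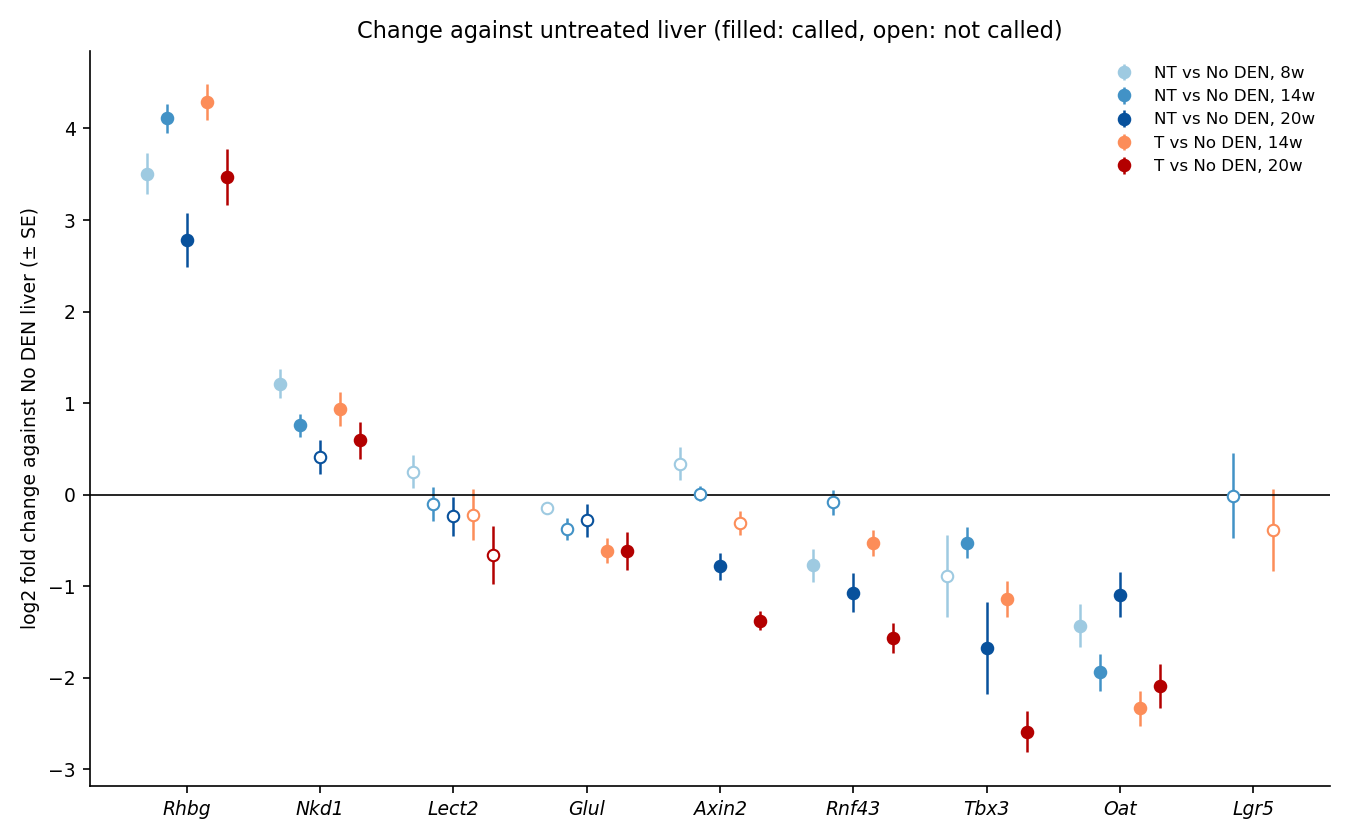
Log2 fold changes against untreated liver of the same week in the 5 comparisons of NT liver or nodules (T) with it, with bars for the standard error, filled where called. Rhbg lies between 2.79 and 4.29 and Oat between -2.33 and -1.09, while Axin2, Rnf43 and Tbx3 are lowest in the nodules of week 20 (-1.38, -1.57 and -2.59).

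Calls required an adjusted p, over all genes tested, of at most 0.05 and an absolute log2 change of 0.5 or more. In NT liver at week 8, 2 of the 8 genes tested were called higher and 2 lower, while of all genes 16.5% were higher and 5.21% lower. At week 14 it was 2 higher and 2 lower of 9, beside 22.8% and 9.85% of all genes. At week 20 it was 1 higher and 4 lower of 8, beside 14.3% and 3.82%. In nodules 2 were higher and 4 lower of 9 at week 14, beside 23.9% and 15.2% of all genes. At week 20, 2 were higher and 5 lower of 8, beside 23.6% and 15.2%. The limits that the study used for NT liver at weeks 8 and 14 are stricter, a fold change of 2 and an adjusted p of at most 0.01. The fold change was read here as an absolute log2 change of 1 or more, and these limits were applied to all comparisons. The counts were then 3, 2 and 2 in NT liver at weeks 8, 14 and 20, where 7.91%, 15.2% and 5.22% of all genes passed. In nodules they were 3 and 5, where 18.7% and 17.4% passed. The median log2 fold change of the tested members was 0.05, -0.08 and -0.53 in NT liver at weeks 8, 14 and 20 and -0.38 and -1.02 in nodules at weeks 14 and 20. Over all genes tested it was -0.01, 0.02 and 0.02 in NT liver and 0.0017 and 0.0070 in nodules. NT liver and nodules of a week share their untreated controls.

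Nodules were then compared with the NT liver of the same rats. In edgeR, 0 of the 9 genes were called at week 14 and 0 at week 20. Unadjusted, 2 had p under 0.05 at week 14 and 3 at week 20. Among all genes 0% were called higher and 0% lower at week 14, 0% and 0% at week 20, and 0% and 0% at the stricter limits, while 1348 and 2767 had an unadjusted p of at most 0.05. DESeq2 called 0 members at week 14 and Axin2, Oat and Rhbg at week 20, as did the fit of all 8 groups. Of all genes, DESeq2 called 37 at week 14 and 881 at week 20, and the fit of all 8 groups called 0 and 1096. The main fit tested 11466 and 11546 genes. With the rat as block, which uses the pairing, no member was called at week 14 (0% of all genes higher and 0% lower). At week 20 Rhbg was higher in nodules (log2 fold change 0.67 (SE 0.16), edgeR adjusted p = 0.0178), and Axin2 (-0.57 (SE 0.13), adjusted p = 0.00711) and Lect2 (-0.51 (SE 0.14), adjusted p = 0.0255) were lower, beside 9.21% of all genes higher and 5.46% lower. In the same fit 3 of 4 cholangiocyte markers (Epcam, Krt19 and Sox9, list median log2 1.15), Gstp1 (1.47), a marker of preneoplastic hepatocytes, and 1 of 6 stellate cell and fibroblast genes (Col1a1) were also higher in nodules, 2 of 6 hepatocyte markers (Alb and Ttr) were lower, and no endothelial or leukocyte marker was called. The part of these markers was not tested. Without the block the values of Rhbg, Axin2 and Lect2 were 0.69, -0.58 and -0.43 (adjusted p = 0.107, 0.102 and 0.445). Glul (-0.34, adjusted p = 0.0303) and Rnf43 (-0.48, adjusted p = 0.0147) stayed under the size limit with the block, and Oat (-0.98) and Tbx3 (-0.72) did not pass (adjusted p = 0.10 and 0.079). Lect2 was called with the block and under no other alternative, while Oat was called with DESeq2 (-0.98, adjusted p = 0.00344), with all groups in 1 fit (-0.96, adjusted p = 0.0114), with nodule 1 alone (-0.99, adjusted p = 0.0343) and without rat H25 (-1.22, adjusted p = 0.0366). Of all genes, 218 were called with nodule 1 alone and 445 without rat H25.

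Single nodules were also set beside the NT liver of their own rat. All 8 nodules had less Axin2 than the NT liver of their rat at week 14, and all 8 again at week 20. Rhbg exceeded the NT liver of the rat in 7 of 8 nodules at week 14 and 8 of 8 at week 20. Oat lay below it in 6 and 8 nodules, Tbx3 in 8 and 7, Rnf43 in 7 and 7, and Glul in 5 and 7. Nkd1 was above it in 7 of 8 nodules at week 14 and split into 4 above and 4 below at week 20. Lect2 was lower than in the own NT liver in 5 of 8 nodules at week 14 and in 7 of 8 at week 20, and the exception was nodule 1 of rat F03, with 134 CPM against 88.2 in its NT liver.

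**Figure D3:**
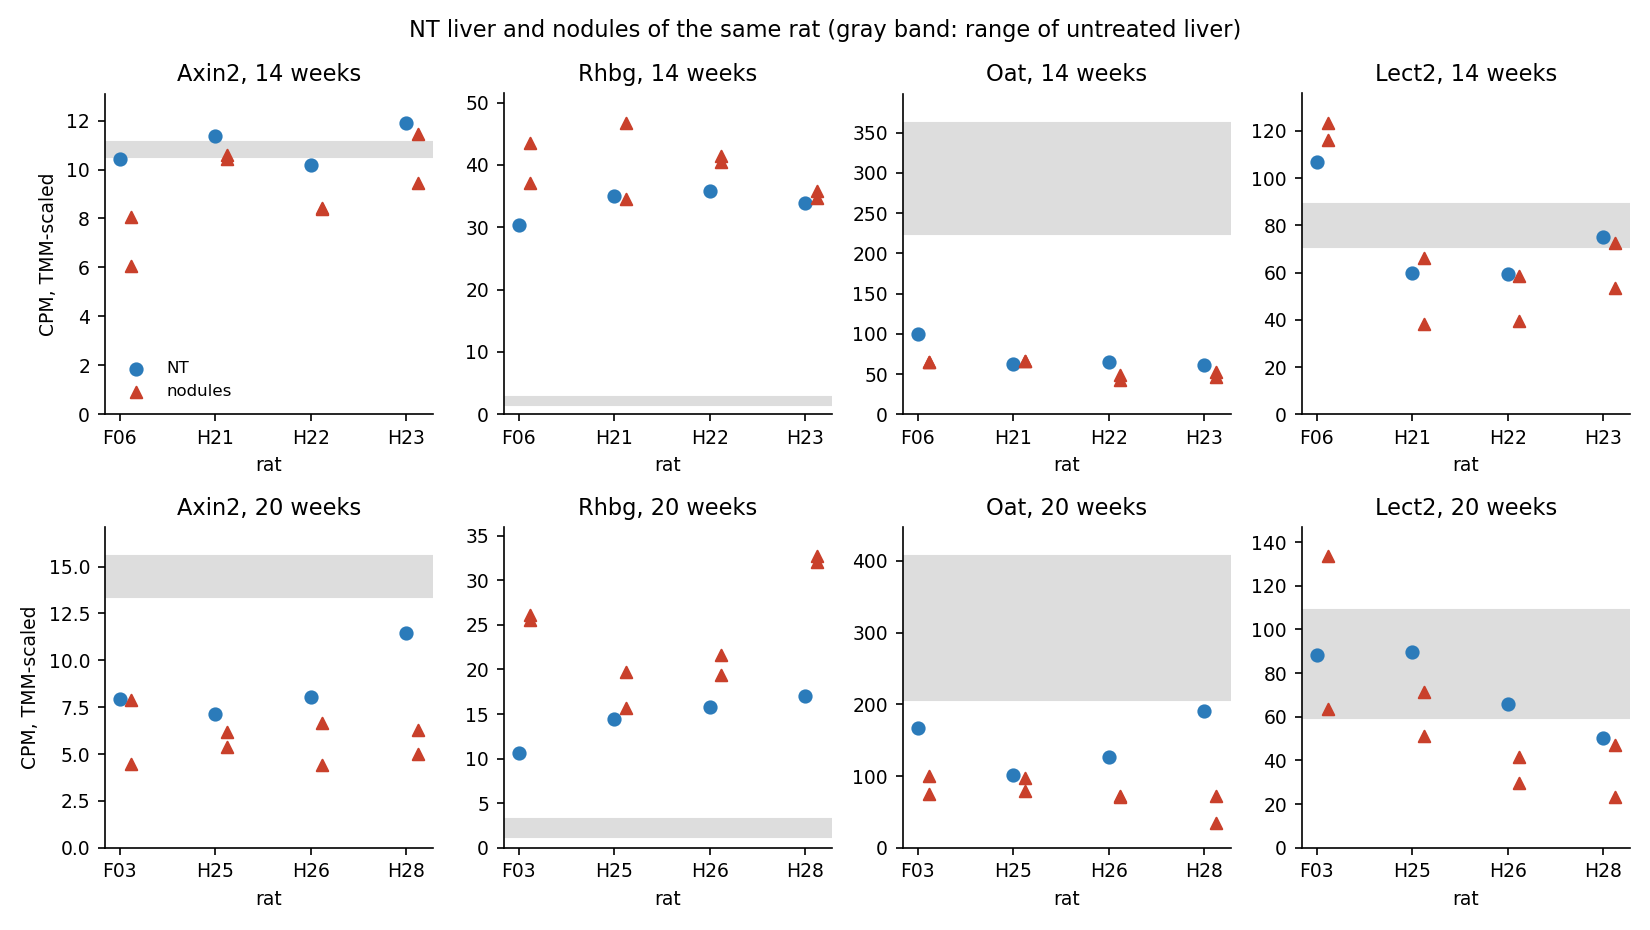
Axin2, Rhbg, Oat and Lect2 in CPM (linear axis from 0) in NT liver (circles) and the nodules (triangles) of each treated rat at weeks 14 and 20, with a gray band for the range of the 4 untreated livers. All nodules of week 20 lie below the NT liver of their rat for Axin2 and Oat and above it for Rhbg.

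Whether an effect of DEN differed between weeks 14 and 20 was tested as an interaction. Axin2 alone was called in NT liver, where its log2 fold change dropped by 0.79 (SE 0.17, edgeR adjusted p = 0.0326), beside 0.338% of all genes with a higher and 0.365% with a lower effect at week 20. In nodules it also was the only one, with a drop by 1.07 (SE 0.16, adjusted p = 0.0105), beside 0.00862% and 0.0775% of all genes. Mean Axin2 was 11 ± 0.306 CPM in untreated liver of week 14 and 14.8 ± 1.04 at week 20, whereas NT liver went from 11 ± 0.81 to 8.64 ± 1.91 CPM and nodules from 9.11 ± 1.69 to 5.79 ± 0.276 CPM (SD, n = 4 rats each), so that both the higher untreated and the lower treated levels enter the change. The NT result was lost when any 1 of 12 of the 16 rats was left out (adjusted p between 0.0571 and 0.0792) and held without each of the treated rats F06, H26 and H28 and untreated rat H15. It was also lost with all 8 groups in 1 edgeR fit (adjusted p = 0.12). The nodule result was kept when each of the 16 rats was left out, with log2 values between -1.16 and -1.0. For Rnf43 the change was -0.99 in NT liver and -1.05 in nodules (adjusted p = 0.085 and 0.156) and for Tbx3 -1.15 and -1.46 (adjusted p = 0.294 and 0.156). Among 21 alternative fits each, Rnf43 was called lower in 3 in NT liver and in 1 in nodules. Tbx3 was called lower in 1 and 2, and Rhbg in 1 in NT liver.

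In untreated liver over weeks 8, 14 and 20, 0 of the 8 genes tested were called by edgeR, beside 0.161% of all genes. DESeq2 called 0 as well, and 2 had an unadjusted p under 0.05. These were Axin2 (adjusted p = 0.157), with a log2 level at week 20 that was 0.47 above week 8, and Rnf43 (adjusted p = 0.374).

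The nodules of a rat differed from each other by amounts that depended on the gene. For Rhbg the larger nodule value was at most 1.35-fold the smaller at week 14 and 1.25-fold at week 20. Axin2 differed by up to 1.33-fold at week 14 (rat F06) and 1.76-fold at week 20 (rat F03). At week 20 Tbx3 differed by up to 2.37-fold (rat H26), Lect2 by up to 2.10-fold (rat F03) and Oat by up to 2.08-fold (rat H28). In rat H28 nodule 1 had 419 CPM of Glul and nodule 2 had 218, and Lect2 stood at 47.2 and 23.3 CPM in the same nodules. Nodule 1 was the lower one for Glul and for Lect2 in all 4 rats of week 14, and for Glul in 1 of 4 rats of week 20.

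Over the 8 treated rats, the log2 difference between nodules 1 and 2 was compared between genes in 15 pairs with Glul or Axin2 on the x axis. Lect2 against Glul gave Pearson's r = 0.87 (exact two-sided permutation p = 0.00439, adjusted over the 15 pairs 0.0658) and Spearman's rho = 0.762 (exact permutation p = 0.0368, adjusted 0.229), and r = 0.63 without the 2 rats farthest from the median of Glul. Rnf43 against Axin2 gave r = 0.73 (exact permutation p = 0.0404, adjusted 0.271) and rho = 0.81 (exact permutation p = 0.0218, adjusted 0.229), with r = 0.51 without the 2 farthest rats. None of the 15 pairs passed after adjustment, and these 2 had an unadjusted p of Pearson's r under 0.05. Leaving out rat F06 gave 1 pair that passed. The 4 rats of week 14 all lay below 0 for both Glul and Lect2, and a week held too few rats (4) for a value of its own. The labels do not say how the nodules of a rat were numbered, and r, rho and their p-values depend on that numbering. Both nodules of a rat share the animal, and all pairs with Glul or with Axin2 share that gene.

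**Figure D4:**
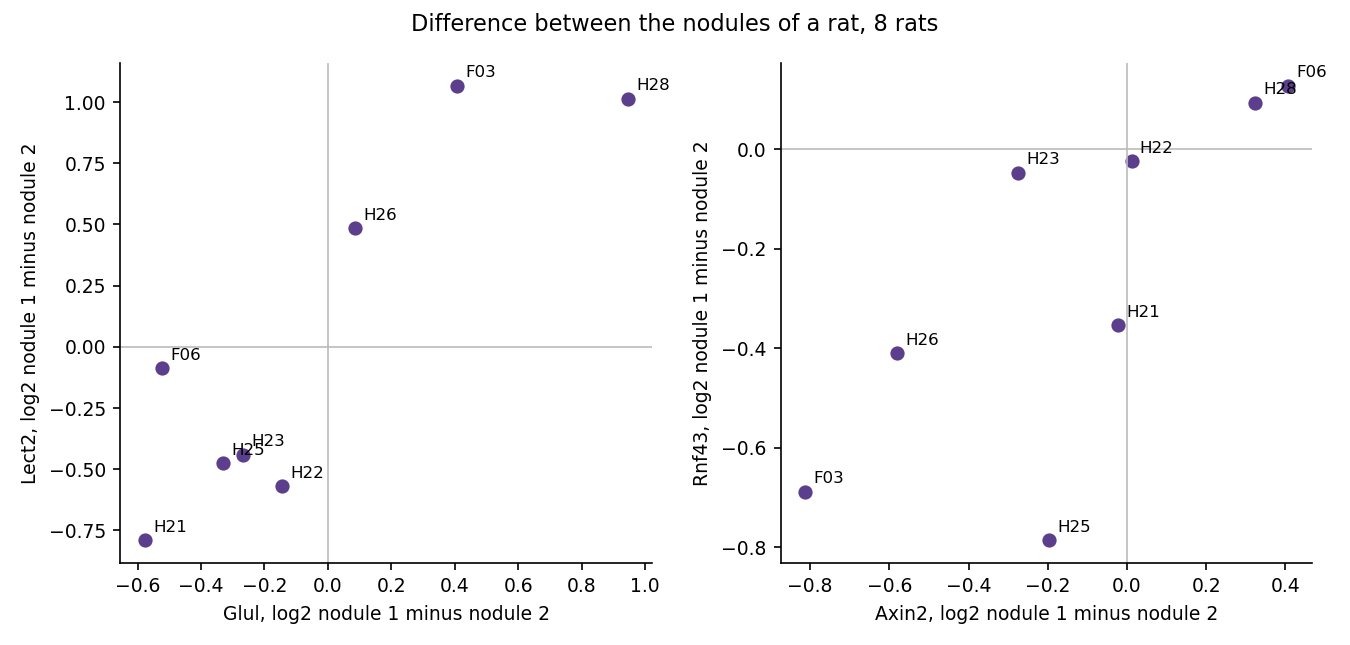
Log2 CPM of nodule 1 minus nodule 2 in each of the 8 treated rats of weeks 14 and 20, for Lect2 against Glul and for Rnf43 against Axin2, with the rat beside each point. The points of Lect2 rise with Glul (r = 0.87) and those of Rnf43 with Axin2 (r = 0.73), and neither passed after adjustment over 15 pairs.

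The other genes of the pathway were counted from lists of its parts. Of 6 to 7 Wnt ligands and secretion factors tested (21 listed, 20 with a row), 4 to 5 rose in each comparison with untreated liver and none fell, while 14.3% to 23.9% of all genes rose. The shares of all genes called, given above for each comparison, are also the background of the other lists. Values for the genes named from the lists are log2 fold changes, all past the call rule unless said otherwise. Wls, which carries Wnt ligands to the cell surface, rose from 4.72 ± 0.722 to 14.3 ± 3.03 CPM in NT liver at week 14 (SD, n = 4, log2 1.61 (SE 0.16)) and by 1.96 in nodules at week 20. Wnt9b, a ligand of central vein endothelium, rose by 1.0, 2.06 and 1.11 in NT liver and by 1.87 and 1.27 in nodules. Wnt5a, a ligand known for beta-catenin-independent signals, rose by 1.74 in NT liver at week 14 and by 1.96 and 2.01 in nodules. Of the R-spondins 2 were tested, and Rspo1 was called higher in 4 of the 5 comparisons, with 1.12 in NT liver at week 8 and 1.08 in nodules at week 14, while Rspo3, which central vein endothelium makes, was not called in any comparison with untreated liver (0.50 to -0.61) and is named here although it falls outside the rule for naming.

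Of 12 receptors tested, 2, 3 and 2 rose and 6, 4 and 2 fell in NT liver at weeks 8, 14 and 20, and 3 and 4 rose and 7 and 6 fell in nodules at weeks 14 and 20. These higher counts are shares near those of all genes in NT liver (16.5%, 22.8% and 14.3%). Lrp5, a Wnt co-receptor, fell from 213 ± 22.4 to 69.2 ± 9.37 CPM in nodules at week 14 (SD, n = 4, log2 -1.65 (SE 0.12)) and was at -0.84, -1.14 and -0.72 in NT liver at weeks 8, 14 and 20, all called. The other co-receptor, Lrp6, fell in nodules, with -1.52 and -1.05. Fzd6, a Frizzled receptor, rose by 0.74, 1.12 and 0.61 in NT liver and 1.4 and 1.29 in nodules, whereas Fzd1 fell in NT liver at weeks 14 and 20 (-0.66 and -0.59) and Fzd4 in nodules at week 14 (-1.06). Of 13 genes of Dishevelled and the destruction complex, between 0 and 3 were called per comparison. Ctnnb1, the beta-catenin gene, was called in none, with log2 fold changes from -0.45 to 0.03, and is also named outside the rule.

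Of 8 TCF/LEF factors and coactivators tested, none rose, and Tle3, a co-repressor, fell in NT liver at weeks 14 and 20 (-0.77 and -0.83) and in nodules (-0.87 and -1.07). Among 8 to 9 secreted or intracellular inhibitors tested, between 2 and 6 rose and at most 2 fell. Dkk2, which binds the Wnt co-receptors, rose from 0.194 ± 0.0657 to 2.31 ± 0.314 CPM in nodules at week 20 (SD, n = 4, log2 3.52 (SE 0.28)), and Dkk3 rose by 1.94, 1.61 and 0.96 in NT liver. The untreated level of Dkk2 was near the floor. Lgr5, at 0.194 to 0.384 CPM (4 to 7 counts) in the same untreated livers, did not pass the filter on low counts at week 20. Dkk2 thus entered this comparison through the nodules and could not have been called lower in it. Notum, an enzyme that inactivates Wnt ligands, fell in NT liver at week 14 (-1.05) and in nodules at week 20 (-1.0).

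Among other beta-catenin targets, of 9 tested, 5, 7 and 3 rose in NT liver at weeks 8, 14 and 20 and 7 and 6 in nodules, while 0, 2 and 2 and then 2 and 3 fell. Cd44, a cell surface receptor of hyaluronan, rose from 2.03 ± 0.464 to 12.9 ± 3.57 CPM in nodules at week 20 (SD, n = 4, log2 2.66 (SE 0.27)), and Myc, a growth regulator, by 3.02 in NT liver at week 14 and 3.26 in nodules. Sp5, a transcription factor, rose by 1.84 in NT liver at week 8 and 1.15 in nodules at week 14, and was lower in nodules at week 20 (-1.01, adjusted p = 0.0234). Cldn2, a tight junction protein, fell in NT liver at weeks 14 and 20 (-0.80 and -0.53) and in nodules (-1.11 and -0.93).

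**Figure D5:**
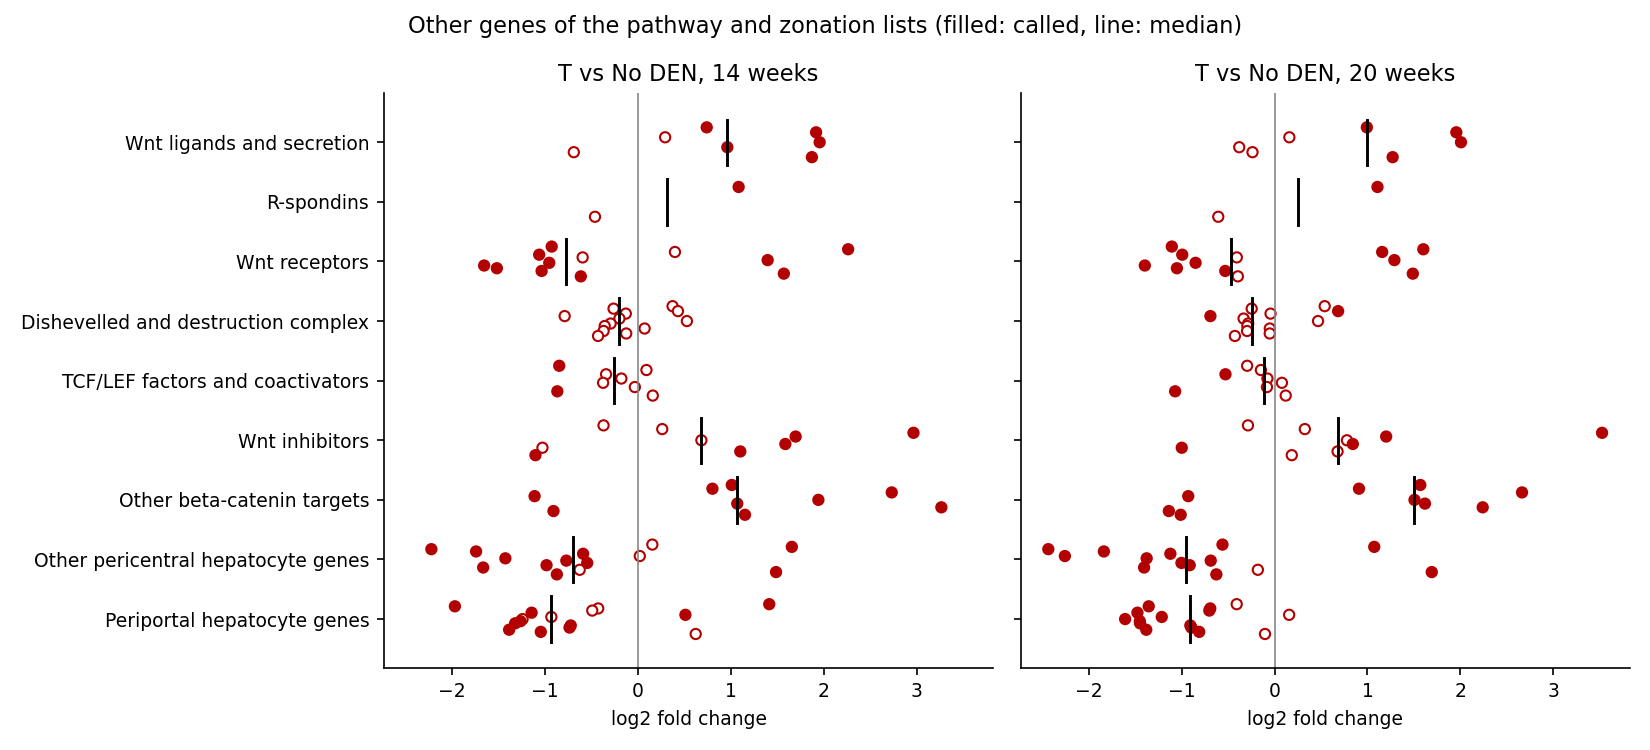
Log2 fold change of each tested gene of the pathway and zonation lists in nodules (T) against untreated liver at weeks 14 and 20, filled where called, with a line at the list median. Points of the Wnt ligands and the other beta-catenin targets lie mostly above 0 (medians 0.99 and 1.51 at week 20), and those of the pericentral and periportal genes mostly below (-0.96 and -0.91).

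Genes of both zones were counted next. Of 14 other pericentral hepatocyte genes, 3, 6 and 7 fell in NT liver at weeks 8, 14 and 20 and 9 and 11 in nodules at weeks 14 and 20, and 1 or 2 rose. Of 15 periportal genes, 4, 7 and 3 fell in NT liver and 8 and 12 in nodules, and at most 2 rose. Of all genes, 5.21%, 9.85% and 3.82% fell in NT liver and 15.2% and 15.2% in nodules. The difference between the zones was not tested. Avpr1a, the vasopressin receptor of pericentral hepatocytes, fell from 114 ± 10.4 to 21.5 ± 9.03 CPM in nodules at week 20 (SD, n = 4, log2 -2.43 (SE 0.28)), and Cyp7a1, the rate-limiting enzyme of bile acid synthesis, was at -2.26 there. Aldh1a1, which makes retinoic acid, rose by 1.88 in NT liver at week 8, and Slc1a4, an amino acid transporter, by 1.69 in nodules at week 20. On the periportal side Gls2, the liver glutaminase, and Ass1, an enzyme of the urea cycle, fell in the same nodules (-1.45 and -1.47), and Aldh1b1 rose by 1.7 in NT liver at week 8.

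Markers of hepatocytes and of other cells were also followed by group. The summed level of 7 central vein and sinusoidal endothelial genes was 88.8 to 149 CPM without DEN and 182 to 195 CPM in NT liver at week 8, 89.1 to 139, 185 to 232 and 179 to 234 CPM in untreated liver, NT liver and nodules at week 14, and 60.1 to 158, 167 to 219.8 and 149.6 to 250.4 CPM at week 20, and 6 of 7 were called higher in each comparison with untreated liver. Cholangiocyte genes (4 measured) summed to 19.5 to 22.9 and 29.5 to 37.9 CPM at week 8, 16.2 to 24, 38.3 to 89.3 and 58.6 to 151 CPM at week 14 and 17.9 to 22.4, 34.6 to 55.4 and 48.3 to 214 CPM at week 20, and all 4 were called higher in each comparison at weeks 14 and 20. The sum of 6 stellate cell and fibroblast genes was 209 to 256 CPM without DEN and 355 to 480.4 in NT liver at week 8, 207 to 261 CPM without DEN, 375 to 480.2 in NT liver and 414 to 531 in nodules at week 14, and 172 to 227 CPM without DEN, 242 to 259 in NT liver and 254 to 394 in nodules at week 20. Of these genes 5, 5 and 3 were called higher in NT liver at weeks 8, 14 and 20 and 4 in nodules at each week, while Pdgfrb was called lower in NT liver at week 14 (-0.58, adjusted p = 2.00e-04). The 6 hepatocyte genes summed to 254688 to 258859 CPM without DEN and 198591 to 252859 in NT liver at week 8, 230610 to 264470 CPM without DEN, 146333 to 188342 in NT liver and 114151 to 178986 in nodules at week 14, and 239425 to 272627 CPM without DEN, 179814 to 250912 in NT liver and 95455 to 204259 in nodules at week 20. These sums were lower in every NT sample than in every untreated sample at weeks 8 and 14, and in every nodule than in every untreated sample at weeks 14 and 20. Of the 6, 1, 5 and 1 fell in NT liver at weeks 8, 14 and 20 and 5 and 4 in nodules, and Apoa1 was called higher in NT liver and nodules at weeks 14 and 20. Gstp1, the marker of preneoplastic hepatocytes, stood at 8.17 to 17.6 CPM without DEN and 73.8 to 318 in NT liver at week 8, at 7.65 to 10.7 CPM without DEN, 505 to 1993 in NT liver and 1219 to 3606 in nodules at week 14, and at 7.38 to 11.4 CPM without DEN, 563 to 1356 in NT liver and 771 to 4642 in nodules at week 20. The 5 leukocyte genes summed to 188 to 354 CPM without DEN and 262 to 295 in NT liver at week 8, 158 to 224 CPM without DEN, 153 to 290.1 in NT liver and 149 to 282 in nodules at week 14, and 132 to 231 CPM without DEN, 192 to 318 in NT liver and 163 to 276 in nodules at week 20. Of them 4 of 5 tested were called higher in NT liver at week 8, 2 of 4 at weeks 14 and 20 each, and 3 of 5 in nodules at each week, and none lower. Each sum rests mostly on its most abundant genes. Over all libraries the medians were 145 CPM for Clec4f among leukocyte genes, 214 for Col3a1 among stellate cell and fibroblast genes, and 163217 for Alb among hepatocyte genes. Cd3d and Cd79b reached at most 0.752 and 1.48 CPM. None of the markers was at 0 in any library. The part of all these markers in the changes of the Wnt and pericentral genes was not tested.

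Over the 40 libraries, Tmem70 (Pearson's r = 0.87), Gcdh (0.86), Lman2 (0.86) and Uqcrfs1 (0.86) were among the 5 genes of 10146 whose log2 CPM was closest to Glul. Those closest to Axin2 were Ints4 (0.84), Gin1 (0.80), Tert (0.80), Atp2b2 (0.80) and Slc13a4 (0.78). These values describe libraries that share rats, treatment and week.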

How the data were processed

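Gene counts were deposited by the authors as 1 table per library. Per the labels and the study's methods, stranded polyA libraries were aligned with STAR 2.7.1a to rn6, and HTSeq counted pairs lying wholly within the exons of a single gene on the reverse strand. Pairs aligned to several places were dropped, which undercounts genes with near-identical copies. The libraries held no molecular identifiers. Reads were not realigned here, and the summary lines of the counting entered no library size or test, among them pairs not wholly within the exons of a gene (21.5% to 34.5% of a library) and pairs with several alignments (7.96% to 16.3%).

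For tests, both nodules of an animal were summed. Group means in CPM use the average of its nodules instead. Replicates are separate rats. The groups of a comparison were fitted alone with edgeR 4.0.16 (filterByExpr, TMM, robust quasi-likelihood F test, two-sided; R 4.3.3), and p-values were adjusted by Benjamini-Hochberg across every gene that passed the filter. Interactions used the 4 groups concerned, and the untreated weeks a joint F test of 3 groups. The standard error (SE) of a log2 fold change was derived as its absolute value divided by the square root of the F statistic. The fit was tested on simulated data. Log2 CPM used a prior count of 2. No interval from counts is given, since errors come from the spread between rats. NT liver and nodules of a rat carry its number, and their deviations from the group means correlated in each of the 8 rats (r = 0.37 to 0.54 over 11466 or 11546 genes), so the rat was also used as a block. The alternatives were DESeq2 1.42.0, RLE scaling, no filter, all 8 groups in 1 fit, each rat left out, the rats numbered F left out, the nodules separately, the study's stricter limits for NT liver and, for correlations, a prior count of 0.5. The member genes, the lists and the tests were chosen with earlier results of these data known. From each list, at most 3 called genes per direction with the largest change and a mean of at least 1 CPM may be named, with examples drawn from these. Promoters are from RefSeq (GRCr8). The 5 genes closest in pattern to Glul and to Axin2 were taken by Pearson's r, and 1 of them is not reported here.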

Additional observations from a re-analysis of the deposited data

Results flagged for a closer look

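Single libraries stood apart from the rest of their group in 9 of the 72 groups of values checked (9 genes in 8 groups) by Dixon's ratio at the 95% level. Chance sets apart about 1 in 20 if the values are independent and normal. The values were CPM without logs, and the nodule groups hold 8 nodules of 4 rats, so this rate is only a rough guide. Axin2 was at 10.5 CPM in the untreated liver of rat H09 at week 14, below a nearest value of 11.1. Oat was at 100.1 CPM in NT liver of rat F06 at week 14 (nearest 65.4) and at 34.7 CPM in nodule 2 of rat H28 at week 20 (nearest 70.9). Tbx3 was at 5.74 CPM in nodule 2 of rat H21 at week 14 (nearest 3.82), at 6.88 CPM in NT liver of rat H28 at week 20 (nearest 2.04), and at 3.34 CPM in nodule 1 of the same rat (nearest 1.99). Lect2 was at 134 CPM in nodule 1 of rat F03 at week 20 (nearest 71.4) and Nkd1 at 6.61 CPM in nodule 2 of that rat (nearest 4.37). Rnf43 was at 7.66 CPM in nodule 2 of rat H21 at week 14 (nearest 5.98).

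The effect of DEN on Axin2 differed between weeks 14 and 20, by -0.79 on the log2 scale in NT liver and by -1.07 in nodules, as tested by the interaction in edgeR. Of the 2 values, the one in NT liver was lost when single rats were left out and with all groups in 1 fit, as given with it above.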

How the results depend on the processing

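Of 28 called changes of the 9 genes, 16 were called in the same direction under every alternative run, and 390 of 445 single alternatives kept the call, 55 lost it and 0 reversed it. The counts of genes called went to 2 (NT, week 14), 2 (NT, week 20) and 3 (nodules, week 14) at the study's limits for NT liver, which are stricter by construction. For nodules against NT liver at week 20 the count went from 0 to 3 with the rat as block (Axin2, Rhbg and Lect2), to 3 with DESeq2 and to 3 with all 8 groups in 1 fit (Axin2, Oat and Rhbg in both), and to 1 with nodule 1 alone (Oat). Over all genes the count at week 20 went from 0 to 1693, 881, 1096 and 218 in the same fits. At week 14 the count of members was 0 with the block. The change of the NT effect between weeks 14 and 20 went from 1 member to 3 with DESeq2, to 0 with all groups in 1 fit and to 2 without the rats numbered F. Over all genes the count went from 79 to 298, 39 and 166 in the same fits. For the change of the nodule effect it went from 1 member to 3 with DESeq2, and over all genes from 10 to 27. The cause was not tested.

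Leaving out 1 rat gave 4 to 5 genes (NT, week 8), 3 to 4 (NT, week 14), 4 to 5 (NT, week 20), 5 to 7 in nodules at either week, 0 to 1 for nodules against NT liver at week 20 (1 without H25) and 0 at week 14, 0 to 3 for the NT change (3 without H28), 1 to 2 for the nodule change (2 without H28), 0 over untreated weeks and 0 to 1 pairs of correlated differences. No called value changed sign. Lect2 in NT liver at week 8 was -0.12 without the rats numbered F. Axin2 in NT liver at week 14 was -0.0081 with DESeq2, -0.0093 with RLE scaling and -0.021 with all groups, and -0.034 to 0.043 with single rats left out. In the same way Lgr5 ran from -0.35 to 0.24 and Rnf43 from -0.23 to 0.019 there. Between nodules and NT liver, Lect2 was 0.091 at week 14 with nodule 2 alone, and Nkd1 was -0.066 at week 20 without the rats numbered F, with -0.066 to 0.36 without single rats. For the change of the NT effect, Glul ran from -0.012 to 0.25, Lgr5 from -0.49 to 0.11 and Lect2 from -0.27 to 0.089. For that of the nodule effect, Glul was 0.010 with no filter and ran from -0.12 to 0.14, and Lgr5 ran from -0.47 to 0.13. Lgr5 had a median of 8 counts per library, the fewest of the 9 genes, and the part of depth in its missing calls was not tested.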
